A study of Mus musculus with 34 samples.

Results

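Kit, Flt3, Cpa3, Cd34 and Cd44, 5 of the 24365 genes with usable counts, were followed across all sorted groups of early mouse thymocytes in an RNA-sequencing study of Bcl11b, a zinc-finger transcription factor needed for commitment to the T lineage. They were chosen by name, as genes of blood progenitors and mast cells, and all 5 passed the filter on low values, a mean of at least 1 RPKM in 1 group. Kit and Cpa3 met it in all 5 Lck-Cre groups described below and Cd44 in all but WT DN3. Flt3 met it only in HOM and Cd34 only in the DN2 groups, so that their entry into the tests already rested on a difference. The transcripts behind their counts are annotated in build mm9: Kit on chromosome 5 (75971012 to 76052746, plus strand), Flt3 on chromosome 5 (148142317 to 148212065, minus strand), Cpa3 on chromosome 3 (20115515 to 20142080, minus strand), Cd34 on chromosome 1 (196765015 to 196787486, plus strand) and Cd44 on chromosome 2 (102651300 to 102741822, minus strand). Reads were counted over exons, so that every value is of exonic sequence, untranslated regions included.

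All cells were double-negative (DN) thymocytes, which lack CD4 and CD8, from C57BL6/J mice. The HOM libraries (n = 5) came from mice with Bcl11b flx/flx and Lck-Cre, sorted as YFP+ CD25+ cells with no stage named. HET DN3 (n = 6) and HET DN2 (n = 5) carried Bcl11b flx/+ and Lck-Cre, and WT DN3 (n = 5) and WT DN2 (n = 4) carried Bcl11b +/+ and the same Cre. DN3 cells were YFP+ and DN2 cells YFP-, both CD25+, so that stage and the reporter of Cre activity changed together and cannot be told apart. A further set with Vav1-iCre, all YFP+ CD25+, had 3 HOM, 4 HET and 2 WT libraries of the same Bcl11b genotypes. Every group, the WT groups included, carried a Cre transgene. Lck-Cre acts in thymocytes and Vav1-iCre in blood stem cells and their descendants. Whether the libraries within a group stem from different mice is not recorded, and p-values therefore reflect library-to-library spread, which may be technical.

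DN2 and DN3 are successive stages of thymocytes that still carry progenitor features at DN2 and have lost most of them at DN3. KIT, the receptor for stem cell factor, and FLT3, the receptor for FLT3 ligand, are class III receptor tyrosine kinases: ligand binding pairs the receptors, which then recruit adaptors and kinases of the PI3K, RAS and STAT pathways. KIT is used by stem cells, early thymocytes and mast cells, and FLT3 by multipotent and lymphoid progenitors before they settle in the thymus. CPA3 is a carboxypeptidase stored in mast cell granules, whose transcript is also found in early thymocytes. CD34 is a sialomucin of progenitor cells, and CD44 is the hyaluronan receptor whose surface level, with that of KIT, classically separates DN2 from DN3 cells. Whether KIT or CD44 antibodies were used in these sorts is not given in the sources used here.

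Lck libraries held 15772841 to 43105091 counts. Bcl11b itself stood at 49.6 ± 10.3 RPKM in HOM and 106.3 ± 13.5 RPKM in WT DN3 (SD, n = 5 each), a log2 change of -1.13 (SE 0.12, adjusted p = 2.33e-07, edgeR's quasi-likelihood test with Benjamini-Hochberg adjustment, as for every adjusted p below). RPKM is the read count scaled to exon length and to the library's total count. The summed level of 10 early T-cell markers ran from 2711 to 3633 RPKM over HOM libraries and from 3298 to 5581 RPKM over the other groups. Of the 10, 7 were called lower and 1 higher in HOM than in WT DN3, where 19.7% of all genes tested were called lower and 19.8% higher. The labelled cell type was present in every library. Some libraries also held transcripts of other cells. Replicates 2 and 3 of HOM, 2 and 3 of HET DN3 and 1 and 2 of HET DN2 had 132 to 1276 CPM (counts scaled to the library's total count alone) of the epithelial gene Clu, against at most 1.29 CPM in the other 19. HET DN3 replicate 1 and WT DN2 replicate 2 had 80.3 and 69.4 RPKM of Cd4 and are left out with those 6 in the fits without 8 libraries. DN cells should lack that gene. HOM replicates 1 and 4 were kept in those fits, although they also held transcripts that may come from other cells. They had 23.2 and 16.0 RPKM of the chemokine gene Ccl5 and 11.4 and 42.8 RPKM of the globin gene Hba-a1. Their Cd4 stood at 1.66 and 6.70 RPKM, and the source of these transcripts was not tested. WT DN3 replicate 5 stood apart from its group in the genes described here, as set out further on, and results that rest on it are given with and without it.

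Promoter sequences are shown for Kit, Cpa3 and Cd34, since the transcripts of these 3 genes were all called higher at DN2 than at DN3 in HET cells. They are the 250 bases before the annotated start, 5′ to 3′ on the gene's own strand, from RefSeq on GRCm38.p6: Kit at chr5:75574737-75574986 (plus), Cpa3 at chr3:20242182-20242431 (minus) and Cd34 at chr1:194938571-194938820 (plus). Capitals mark matches to AGATAA, a motif of the GATA family. They also mark TGTGGT, a motif of Runx factors, and CANNTG, the E-box. The Ets family motif GGAAGT was searched too, and each motif on both strands.
Kit: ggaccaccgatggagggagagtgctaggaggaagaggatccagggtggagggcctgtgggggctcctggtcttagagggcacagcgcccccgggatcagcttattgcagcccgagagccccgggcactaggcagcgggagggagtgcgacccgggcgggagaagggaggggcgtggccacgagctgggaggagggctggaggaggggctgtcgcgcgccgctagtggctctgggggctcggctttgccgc
Cpa3: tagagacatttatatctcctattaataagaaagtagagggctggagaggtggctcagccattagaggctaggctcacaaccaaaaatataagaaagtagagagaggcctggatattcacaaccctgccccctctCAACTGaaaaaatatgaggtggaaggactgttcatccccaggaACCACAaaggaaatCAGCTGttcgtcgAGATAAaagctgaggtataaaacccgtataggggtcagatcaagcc
Cd34: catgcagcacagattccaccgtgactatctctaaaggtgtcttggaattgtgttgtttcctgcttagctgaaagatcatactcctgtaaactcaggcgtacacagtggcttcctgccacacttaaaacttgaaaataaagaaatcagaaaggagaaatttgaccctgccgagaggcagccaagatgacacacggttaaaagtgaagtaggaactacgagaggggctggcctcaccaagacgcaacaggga
Only the Cpa3 window held matches among these 3. It had AGATAA beginning 46 bases before the start and the reverse complement of TGTGGT beginning 73 bases before it. E-boxes began 59 and 116 bases before it, with no overlap between motifs. The 250-base windows of Flt3 (an E-box and the reverse complement of GGAAGT) and Cd44 (AGATAA) held fewer. Of 27025 mouse promoters of the same length, 10.3% held AGATAA, 14.2% TGTGGT, 66.0% CANNTG and 19.99% GGAAGT. A match describes letters in the window and is no evidence of binding, and the windows of Kit and Cd34 say only that these letters are not in them.

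Kit was highest in HOM, intermediate in both DN2 groups and lowest in both DN3 groups. Its levels were 59.3, 48.9, 50.1, 33.9 and 56.1 RPKM in HOM replicates 1 to 5. In HET DN3 they had a lowest value of 5.91, a median of 10.1 and a highest of 17.2 RPKM, and in WT DN3 replicates 1 to 5 they were 8.21, 7.57, 7.41, 8.35 and 15.6 RPKM. Every HOM library lay above every library of the other 4 groups, and the highest WT DN3 value was that of replicate 5. Kit stood at 18.4, 27.1, 27.1, 27.98 and 25.6 RPKM in HET DN2 and at 30.5, 17.96, 23.6 and 21.8 RPKM in WT DN2. The 2 DN2 groups overlapped each other, and so did the 2 DN3 groups, while the lowest WT DN2 library (17.96 RPKM) was just above the highest HET DN3 library (17.2 RPKM).

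The Kit transcript was 5.15-fold more abundant in HOM than in WT DN3 (log2 change 2.36, SE 0.25, adjusted p = 1.39e-07). Against HET DN3 the log2 change was 2.29 (SE 0.23, adjusted p = 1.32e-07), and against WT DN2 it was 1.13 (SE 0.26, adjusted p = 0.00124). HOM was thus above both stages of the WT cells for Kit. As the HOM label names no stage, and as fewer cells of a type and less RNA per cell give the same bulk value, genotype, stage composition and level per cell cannot be told apart here. Between stages, Kit was lower in WT DN3 than in WT DN2 (log2 change -1.24, SE 0.25, adjusted p = 0.00139) and in HET DN3 than in HET DN2 (-1.28, SE 0.23, adjusted p = 0.00123). One floxed allele was not seen to shift it: the log2 change was 0.07 in HET DN3 against WT DN3 (95% interval -0.40 to 0.54, adjusted p = 0.861) and 0.12 in HET DN2 against WT DN2 (-0.40 to 0.64, adjusted p = 0.970).

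**Figure D1:**
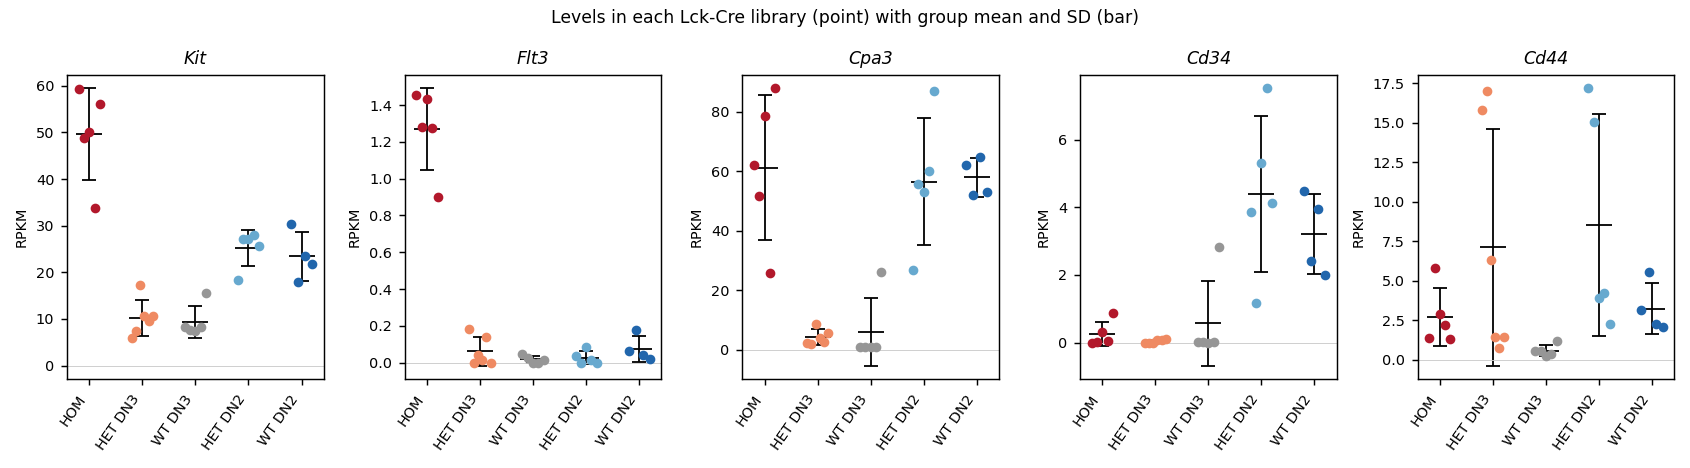
Levels of the 5 genes in RPKM (vertical axes, linear, a separate scale for each gene) in each of the 25 Lck-Cre libraries, with each point 1 library and bars for the group mean and SD, for HOM, HET DN3, WT DN3, HET DN2 and WT DN2 from left to right. Kit and Flt3 in HOM lie above all other libraries (lowest HOM values 33.9 and 0.899 RPKM), Cpa3 in HOM covers the DN2 range, and Cd34 in HOM stays at or below 0.878 RPKM.

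Flt3, the second receptor kinase, was nearly silent in every group except HOM. The gene had 137, 117, 165, 93 and 84 counts in HOM replicates 1 to 5, or 1.45, 1.28, 1.43, 1.27 and 0.899 RPKM. No other Lck library had more than 12 counts, and 6 of the 20 had none, which allows up to 0.0238 to 0.0375 RPKM by library (the level of 3 counts). HOM did not overlap any other group. Mean levels elsewhere were 0.0629 RPKM in HET DN3, 0.0175 in WT DN3, 0.0271 in HET DN2 and 0.0745 in WT DN2, and these 4 groups overlapped in their libraries. In pooled counts, HOM had 596 Flt3 reads against 7 in WT DN3, a ratio per total count of 96.2 (exact 95% interval 46.4 to 240.4). Such intervals cover counting error only. Against HET DN3, with 26 reads, the ratio was 23.7 (16.0 to 36.7), and 38.2 (22.6 to 70.2) without replicate 1 of HET DN3, which held 12 of those reads. Against WT DN2, with 21 reads, it was 20.6 (13.3 to 33.5), and 32.7 (18.1 to 65.8) without replicate 2 of WT DN2, which held 10 of them. Both libraries had transcripts of other cells, and leaving them out was chosen after seeing the data.

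As Flt3 entered the test only through its level in HOM, the fitted changes of HOM are a description. They were 6.23 against WT DN3 (log2 change, SE 1.18, adjusted p = 2.38e-04), 4.36 against HET DN3 (SE 0.98, adjusted p = 0.00185) and 4.17 against WT DN2 (SE 1.14, adjusted p = 0.00563). The fitted size depends on the few reads of the lower group and is no bound. Flt3 in HOM was still a low transcript: its mean of 1.27 ± 0.222 RPKM was far below the 49.7 ± 9.81 RPKM of Kit in the same 5 libraries. Flt3 was not called in any comparison among the WT and HET groups (adjusted p from 0.212 to 0.880).

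Cpa3, the carboxypeptidase gene, was abundant in HOM and in both DN2 groups and low in DN3. Its levels were 62.1, 51.9, 78.7, 25.8 and 87.9 RPKM in HOM. In HET DN3 the lowest, median and highest were 1.94, 3.26 and 8.69 RPKM, and in WT DN3 replicates 1 to 5 the levels were 0.804, 1.01, 0.820, 0.980 and 26.2 RPKM. The only overlap between HOM and WT DN3 came from WT DN3 replicate 5, whose value was just above that of HOM replicate 4. In HET DN2 Cpa3 stood at 26.7, 55.8, 53.1, 60.0 and 86.9 RPKM, and in WT DN2 at 62.1, 52.0, 65.0 and 53.0 RPKM. HOM, HET DN2 and WT DN2 thus covered the same range.

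Cpa3 rose in HOM against WT DN3 by a log2 change of 3.27 (SE 0.76, adjusted p = 0.00165), and by 6.07 (SE 0.49, adjusted p = 6.17e-09) without WT DN3 replicate 5. Against HET DN3 the change was 3.86 (SE 0.73, adjusted p = 3.91e-04). Between HOM and WT DN2 no difference was detected (log2 change 0.13, 95% interval -1.39 to 1.65, adjusted p = 0.905). That interval contains the 1.13 of Kit in the same comparison, and the 2 genes were not tested against each other. The ratio of Cpa3 to Kit (both in RPKM) was 1.201 ± 0.357 in HOM (SD, n = 5), 0.391 ± 0.117 in HET DN3 (n = 6), 0.429 ± 0.702 in WT DN3 (n = 5), 2.20 ± 0.717 in HET DN2 (n = 5) and 2.53 ± 0.381 in WT DN2 (n = 4). The HOM ratios, 0.761 to 1.57, lay below every WT DN2 ratio (2.04 to 2.89) and above every HET DN3 ratio (0.260 to 0.540). In WT DN3, replicates 1 to 4 had ratios of 0.0979 to 0.134, below every HET DN3 ratio, with a mean of 0.115 ± 0.0150 (n = 4), and replicate 5 had 1.68, above every HOM ratio. HET DN2 replicate 1, at 1.46, lay within the HOM range, and the other HET DN2 libraries lay above it. That order was read off the libraries without a test.

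The stage difference of Cpa3 was larger than that of Kit in both genotypes. It was -3.14 in WT DN3 against WT DN2 (log2 change, SE 0.78, adjusted p = 0.00600), which became -5.92 (SE 0.49, adjusted p = 4.53e-07) without WT DN3 replicate 5, and -3.71 in HET DN3 against HET DN2 (SE 0.73, adjusted p = 0.00268). The sizes of the 2 genes' differences were not tested against each other. For HET DN3 against WT DN3, the sign of the Cpa3 change depended on 1 library. With all libraries it was -0.59 (SE 0.70, adjusted p = 0.601). Without WT DN3 replicate 5 it was 2.18 (SE 0.44, adjusted p = 0.0205), with every HET DN3 library (1.94 RPKM and above) over all 4 remaining WT DN3 libraries (at most 1.01 RPKM). In the DN2 groups the log2 change of Cpa3 in HET against WT was -0.02 (95% interval -1.54 to 1.49, adjusted p = 0.998).

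**Figure D2:**
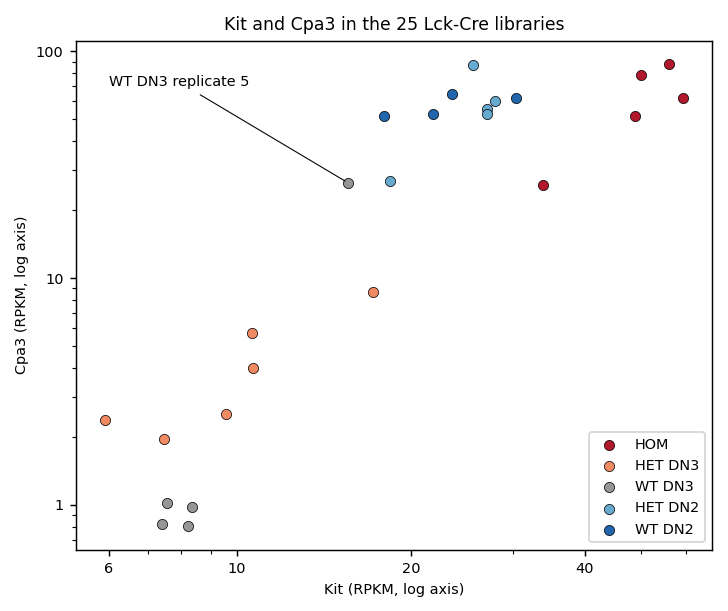
Kit (horizontal) against Cpa3 (vertical), both in RPKM on log axes, with each point 1 of the 25 Lck-Cre libraries coloured by group. HOM libraries lie to the right of the DN2 libraries at like Cpa3 levels, 4 WT DN3 libraries lie at the lower left (Kit 7.41 to 8.35, Cpa3 0.804 to 1.01 RPKM), and WT DN3 replicate 5 lies near the DN2 libraries.

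Cd34, the progenitor sialomucin gene, was a DN2 transcript that was low in HOM. It stood at 0, 0.0305, 0.302, 0.0572 and 0.878 RPKM in HOM, from 0, 2, 25, 3 and 59 counts. In HET DN3 the lowest, median and highest were 0, 0.0322 and 0.104 RPKM, and WT DN3 replicates 1 to 5 had 1, 1, 0, 1 and 318 counts, the last being 2.83 RPKM. Within HOM, replicates 3 and 5 held nearly all of the reads. In HET DN2 Cd34 stood at 3.87, 1.18, 5.32, 7.52 and 4.12 RPKM, and in WT DN2 at 4.48, 2.404, 3.95 and 2.002 RPKM. Every HOM library lay below every library of both DN2 groups. A count of 0, found in 5 of the 25 libraries, allows 0.0331 to 0.0641 RPKM by library.

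Since Cd34 entered the tests only through its DN2 levels, its changes against the DN2 groups are a description. It was lower in HOM than in WT DN2 (log2 change -3.58, SE 1.38, adjusted p = 0.0415), a call that did not pass when any 1 of 8 of the 9 libraries was left out (adjusted p up to 0.0838). Its change in HOM against WT DN3 turned with WT DN3 replicate 5: -1.22 (SE 1.26, adjusted p = 0.462) with all libraries and 4.21 (SE 1.29, adjusted p = 0.0146) without it. In pooled counts HOM then had 89 reads and the other 4 WT DN3 libraries 3, a ratio of 23.6 per total count (exact 95% interval 7.81 to 116.5). Against HET DN3 the change was 2.59 (SE 1.38, adjusted p = 0.180). HET DN3 against WT DN3 gave -3.82 (SE 1.38, adjusted p = 0.0774) with all libraries and 1.61 (adjusted p = 0.472) without WT DN3 replicate 5, neither of them called. The stage difference was -6.65 in HET DN3 against HET DN2 (SE 1.49, adjusted p = 0.00645), with 14 reads in HET DN3 against 1186 in HET DN2. In WT DN3 against WT DN2 it was -2.36 (SE 1.31, adjusted p = 0.211) with all libraries. It was -7.78 (SE 1.40, adjusted p = 5.61e-04) without WT DN3 replicate 5, and -7.72 (SE 1.50, adjusted p = 0.00190) when the replicate number was a block of the model, which also leaves that library out for want of a partner. The 4 remaining WT DN3 libraries held 3 Cd34 reads, against 785 in WT DN2, and the WT DN2 level was 287 times theirs (exact 95% interval 97.8 to 1394).

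Cd44, the hyaluronan receptor gene, varied widely within groups, and its values moved with transcripts of other cells. Its levels were 1.37, 5.81, 2.88, 2.18 and 1.33 RPKM in HOM. In HET DN3 the lowest, median and highest were 0.721, 3.87 and 17.0 RPKM, and in WT DN3 they were 0.586, 0.590, 0.223, 0.340 and 1.18 RPKM in replicates 1 to 5. All HOM libraries lay above all WT DN3 libraries, and HET DN3 spread over both. Cd44 stood at 17.2, 15.1, 3.93, 4.25 and 2.27 RPKM in HET DN2 and at 3.12, 5.55, 2.24 and 2.07 RPKM in WT DN2. The highest library of HOM was replicate 2, that of WT DN2 was replicate 2, and the 2 highest of HET DN2 were replicates 1 and 2.

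These are among the libraries with transcripts of other cells. The 6 libraries with epithelial transcripts had 100.4 to 880 CPM of the keratin gene Krt8 and 14.5 to 86.4 CPM of Cd44 (median 53.9), against at most 20.7 CPM of Krt8 and 1.12 to 79.5 CPM of Cd44 (median 7.16) in the other 19. The 79.5 CPM belonged to HET DN3 replicate 1, with 80.3 RPKM of Cd4, 884 RPKM of the globin gene Hba-a1 and 29.4 RPKM of the chemokine gene Ccl5. WT DN2 replicate 2, with 69.4 RPKM of Cd4 and 56.9 RPKM of Ccl5, had the highest Cd44 of its group. The summed level of 9 epithelial markers ran from 7.22 to 494.7 RPKM over HOM libraries, 13.5 to 1870 over HET DN3, 21.3 to 24.5 over WT DN3, 12.8 to 1724 over HET DN2 and 13.6 to 24.6 over WT DN2. That of 8 mature T-cell markers ran from 44.6 to 84.6 RPKM in HOM, 30.2 to 303 in HET DN3, 36.4 to 55.6 in WT DN3, 21.9 to 96.7 in HET DN2 and 31.2 to 349.8 in WT DN2. The part of these cells in the Cd44 values was not tested beyond leaving their libraries out.

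**Figure D3:**
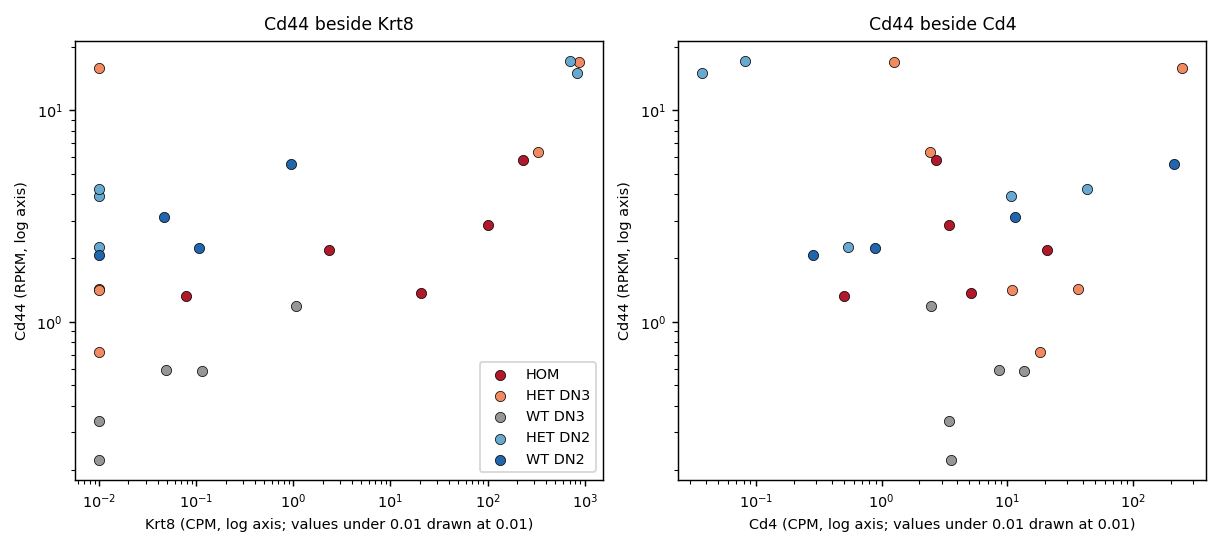
Cd44 (vertical, RPKM, log axis) against Krt8 (left) and Cd4 (right), both in CPM on log axes, with each point 1 of the 25 Lck-Cre libraries coloured by group and values under 0.01 CPM drawn at 0.01. The libraries with the highest Cd44 (15.1 to 17.2 RPKM) have either at least 100.4 CPM of Krt8 or, for HET DN3 replicate 1, 247 CPM of Cd4.

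Cd44 was called higher in HOM than in WT DN3 (log2 change 2.17, SE 0.78, adjusted p = 0.0312), a call that passed without the 8 libraries (1.43, SE 0.40, adjusted p = 0.00896) and not without the 6 alone (1.43, SE 0.76, adjusted p = 0.145). Both fits kept HOM replicates 1, 4 and 5, with 1.63 ± 0.483 RPKM (SD, n = 3), all above the highest WT DN3 library, although replicates 1 and 4 held the Ccl5 and Hba-a1 transcripts given above. It also missed the threshold without HOM replicate 2 or any of WT DN3 replicates 1 to 4 (log2 changes from 1.69 to 2.17). In HET DN3 against WT DN3 its change was 3.56 (SE 0.80, adjusted p = 0.0238), and 2.99 (SE 0.73, adjusted p = 0.0483) without the 6. Without the 8 it was 0.97 (SE 0.41, adjusted p = 0.275), with 1.19 ± 0.404 RPKM in HET DN3 (n = 3) and 0.585 ± 0.371 RPKM in WT DN3 (n = 5). Between stages it was lower in WT DN3 than in WT DN2 (-2.38, SE 0.81, adjusted p = 0.0389). That call was lost without any 1 of 6 of the 9 libraries: WT DN3 replicates 1 to 4 (-2.38 to -2.16, adjusted p from 0.0702 to 0.0975) and WT DN2 replicates 1 (-2.40, adjusted p = 0.0611) and 2 (-1.99, SE 0.85, adjusted p = 0.120), the last being the only one of them among the 8. Without all 8 it was called (-1.99, SE 0.40, adjusted p = 0.00222). In HET DN3 against HET DN2 the change was -0.23 (SE 0.69, adjusted p = 0.871), and it became -1.53 (SE 0.46, adjusted p = 0.0498) without the 8 libraries. Cd44 in HOM and WT DN2 differed by -0.21 (95% interval -1.82 to 1.40, adjusted p = 0.856).

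Counted together, Kit, Cpa3 and Cd44 were called higher in HOM than in WT DN3, where 19.8% of all 12218 genes tested were called higher and 19.7% lower. Flt3 was called higher too, but its entry through HOM lends that call no weight. Without WT DN3 replicate 5, Cd34 was also called higher (17.9% of all genes). Against HET DN3, Kit and Cpa3 were higher in HOM (11.8%), beside Flt3. Against WT DN2, Kit was higher in HOM (21.3%), beside Flt3, and Cd34 was lower (19.9%), a gene that entered only through DN2. At the stage step, Kit, Cpa3 and Cd44 were lower in WT DN3 than in WT DN2 (9.3%). Kit and Cpa3 were lower in HET DN3 than in HET DN2 (4.52%). Cd34 was lower there too and, without WT DN3 replicate 5, in WT DN3 against WT DN2 (8.22%), again as a gene that entered only through DN2. HET DN3 was higher than WT DN3 in Cd44 alone (4.31%), and in Cd44 and Cpa3 without WT DN3 replicate 5 (1.04%). None of the 5 was called in HET DN2 against WT DN2, where edgeR called 0% of genes, with 912 at an unadjusted p under 0.05 and 182 called by DESeq2. The stage step did not differ detectably between HET and WT for any of the 5 (adjusted p from 0.529 to 0.987), a test in which edgeR also called 0% of genes, with 1112 at an unadjusted p under 0.05 and 20 called by DESeq2. The comparisons share libraries, so their counts are not independent of each other.

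**Figure D4:**
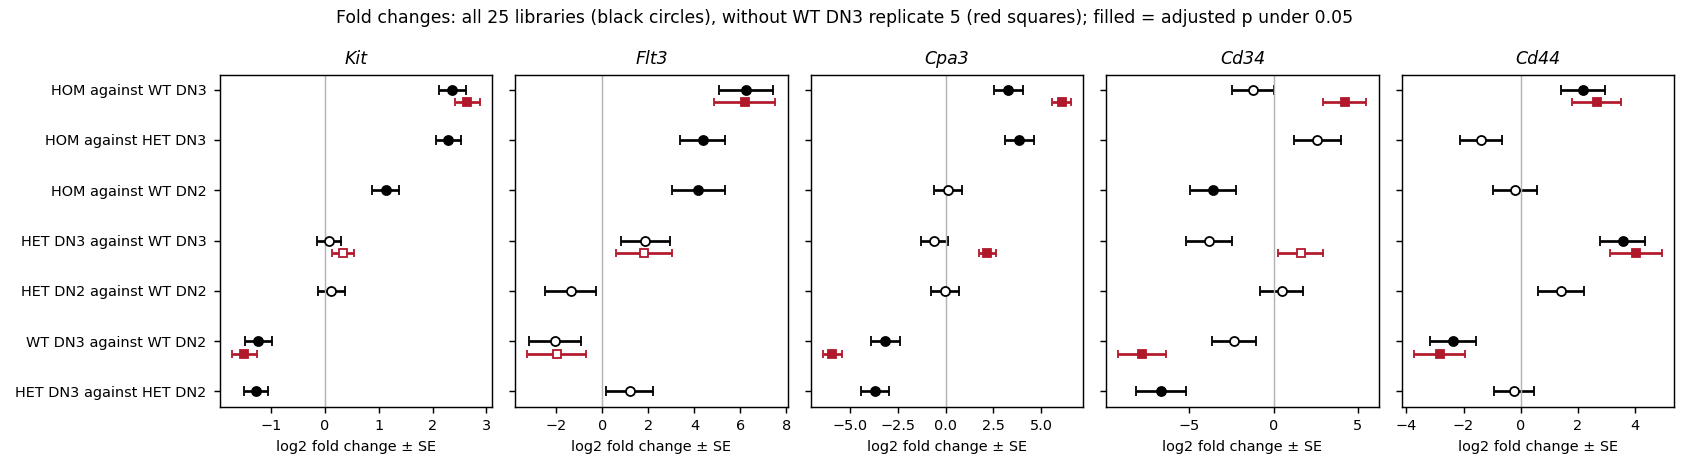
Log2 fold changes with their SE (horizontal axes) for the 5 genes in 7 comparisons of Lck-Cre groups, with black circles for all 25 libraries, red squares for the fit without WT DN3 replicate 5 and filled symbols for an adjusted p under 0.05. The red and black symbols lie on opposite sides of 0 for Cd34 in HOM against WT DN3 (4.21 and -1.22) and in HET DN3 against WT DN3 (1.61 and -3.82), and for Cpa3 in HET DN3 against WT DN3 (2.18 and -0.59).

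WT DN3 replicate 5 carried an intermediate level of DN2 transcripts. It had 15.6 RPKM of Kit, against 7.41 to 8.35 in the other 4 WT DN3 libraries, 26.2 RPKM of Cpa3 against 0.804 to 1.01, 2.83 RPKM of Cd34 against 0 to 0.0222 and 1.18 RPKM of Cd44 against 0.223 to 0.590. On the way from the mean of the other 4 to the mean of WT DN2, its value lay at 49.4% for Kit, 44.4% for Cpa3, 88.0% for Cd34 and 26.7% for Cd44. Flt3 could not place the library. It stood at 0.0128 RPKM (2 counts) there, against 0 to 0.0478 in the other 4, and WT DN2 (0.0196 to 0.175 RPKM) overlapped these. The same library stood between the stages for other genes too. Of 36 genes at least 8-fold higher in WT DN2 than in the other 4 WT DN3 libraries (mean of at least 2 RPKM, no overlap; Cpa3 and Cd34 among them), its median position was 50.2% (quartiles 42.1% and 68.4%), and 32 of the 36 lay past 20%.

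Stem and progenitor genes showed the same pattern in that library. Of 22 such genes, among them the transcription factor genes Lyl1, Hhex and Spi1, 16 were higher in replicate 5 than in all 4 other WT DN3 libraries. In the other libraries of the group that number was 1, 0, 0 and 4, for replicates 1 to 4. Of 13 genes listed for the DN3 stage, 6 were lowest in replicate 5 and 1, 5, 1 and 0 in replicates 1 to 4, so that replicate 2 was close to it on this list. The list had no common direction between stages, with 2 genes higher and 2 lower in HET DN3 than in HET DN2. Of all genes, 4.52% were lower there, and the number called in either direction is given at the end. The 6 include Rag1, an antigen receptor recombinase gene (128.5 RPKM against 151.7 to 173.5), and Notch3 (91.0 RPKM against 97.0 to 138). It was kept in the group its label gives, and its composition was not tested further.

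Defining transcripts of mast cells were low in all groups. The summed level of 8 mast cell and basophil markers, among them the tryptase, chymase and IgE receptor genes, was 0.304 to 1.90 RPKM over HOM libraries, 0.0937 to 0.252 over HET DN3, 0.0829 to 0.296 over WT DN3, 0.252 to 0.427 over HET DN2 and 0.173 to 0.580 over WT DN2. None of the 8 passed the filter, and the tryptase gene Tpsab1 and the chymase gene Cma1 had no counts in any of the 25 libraries. Mcpt8, a basophil protease gene, had 61 counts over the HOM libraries, at up to 1.77 RPKM, against 1 in HET DN3, 4 in WT DN3, 12 in HET DN2 and 2 in WT DN2. Of a wider list of 22 mast cell and basophil genes, 3 were expressed enough to be tested. These 3 were called higher in HOM than in WT DN3, as were 19.8% of all genes, with a median log2 change of 1.31 (0.01 over all genes). Without WT DN3 replicate 5, 2 of the 3 were. They are Fcer1g (6.55, SE 0.71, adjusted p = 2.39e-07), the signalling subunit of Fc receptors, also used by innate lymphocytes, Srgn (1.31, SE 0.25, adjusted p = 2.17e-04), the granule proteoglycan serglycin, and Slc18a2 (0.59, SE 0.23, adjusted p = 0.0479), a monoamine transporter, for which WT DN3 replicate 5 decided the call (adjusted p = 0.0786 when it was left out). Slc18a2 also missed the threshold without the 6 libraries (adjusted p = 0.0541). Of 7 markers of natural killer and innate lymphoid cells, 1 passed the filter, the granzyme gene Gzma, and it was called higher in HOM than in WT DN3 (log2 change 1.36). Gzma made up nearly all of the summed level of that list, which was 381.5 to 754 RPKM over HOM libraries, 219.8 to 367 over HET DN3, 174 to 229 over WT DN3, 50.1 to 151 over HET DN2 and 65.4 to 129 over WT DN2, while their defining receptor gene Ncr1 had at most 0.513 RPKM in HOM and 0 counts in WT DN3. The part of such cells in the HOM values was not tested.

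Other stem and progenitor genes gave calls in both directions in HOM. Of 14 tested members of the stem and progenitor list, 2 were higher and 5 lower in HOM than in WT DN3 (median log2 change -0.33, against 0.01 over all genes), beside 19.8% higher and 19.7% lower of all genes. Without WT DN3 replicate 5, 3 were higher and 2 lower (median -0.07). The repressor gene Gfi1b fell to 0.0783 RPKM in HOM, against 0.984 in WT DN3 (log2 change -3.64, SE 0.79, adjusted p = 9.16e-04), and Bcl11a, the paralogue of Bcl11b, to 0.546 RPKM in HOM against 1.70 in WT DN3 (-1.66, SE 0.42, adjusted p = 0.00344). The homeobox gene Hoxa9 was also lower (-2.31, SE 0.73, adjusted p = 0.0151; -1.84, adjusted p = 0.0561 without WT DN3 replicate 5), and Cd93, a surface glycoprotein gene of progenitors, was higher (0.94, SE 0.22, adjusted p = 0.00171). Against WT DN2, 8 of the 14 were lower in HOM and none higher (median -1.69, against 0.04 over all genes), beside 19.9% lower and 21.3% higher of all genes. The Ets factor gene Erg was among the 8 (-2.62, SE 0.46, adjusted p = 9.69e-05). In WT DN3 against WT DN2, 6 were lower and none higher, with and without WT DN3 replicate 5. Of all genes, 9.3% and 8.22% were lower there, and 19.2% were called in either direction without that replicate. Gfi1b, Hoxa9 and Mef2c, tested members of the list, entered the tests only through DN2 groups, so any call of theirs against DN2 is a description. Of 13 genes listed for the DN3 stage, 7 were lower and 1 higher in HOM than in WT DN3 (median -0.61), beside 19.7% lower and 19.8% higher of all genes. Among the 7 were Notch3 (-1.93), a Notch receptor gene, and Cd3d (-1.58), which encodes a CD3 chain. Between WT DN3 and WT DN2, where 9.3% of all genes were lower, this list had no common direction. It had 2 genes higher and 2 lower in WT DN3 (median -0.06). Its change in HOM is therefore no measure of stage.

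Ligand and signalling genes of the 2 receptors were called in both directions. Of 25 tested, 7 were higher and 6 lower in HOM than in WT DN3 (median log2 change 0.09), where 19.8% of all genes were higher and 19.7% lower, with the same numbers without the 6 or the 8 libraries with transcripts of other cells and without WT DN3 replicate 5. Lyn, a Src-family kinase gene that acts downstream of KIT, stood at 12.6 ± 1.60 RPKM in HOM, 3.93 ± 1.40 in HET DN3 and 2.25 ± 0.643 in WT DN3 (HOM against WT DN3 2.46, SE 0.25, adjusted p = 7.44e-08; HET DN3 against WT DN3 0.77, SE 0.23, adjusted p = 0.0461, and 0.42, adjusted p = 0.214 without the 6 libraries). The phosphatase gene Ptprj (-1.24, SE 0.15, adjusted p = 8.67e-07), the ubiquitin ligase gene Cblb (-1.18, SE 0.15, adjusted p = 2.65e-06) and the adaptor gene Sh2b2 (-2.80, SE 0.38, adjusted p = 5.37e-06) were lower in HOM than in WT DN3. At the stage step 6 of the 25 were lower in WT DN3 than in WT DN2 and none higher, where 9.3% of all genes were lower. Without WT DN3 replicate 5, 19.2% of all genes were called at that step in either direction and 8.22% lower. Among the 6 were Lyn (-1.10, adjusted p = 0.00323), the adaptor gene Gab2 (-1.54, adjusted p = 0.00108) and Stat3 (-0.66, adjusted p = 7.16e-05).

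Relatives of the 5 genes gave few expressed members. Of the other class III receptor kinase genes only Pdgfrb was tested, and it was not called in HOM against WT DN3 (0.14, adjusted p = 0.780). Of 13 other zinc carboxypeptidase genes 2 were tested. Cpd stood at 3.64 ± 0.364 RPKM in HOM and 0.582 ± 0.152 RPKM in WT DN3 (2.61, SE 0.45, adjusted p = 7.58e-05). Cpe was called with all libraries (6.01, adjusted p = 0.0483) and not without WT DN3 replicate 5, the 6 or the 8 (3.22 to 6.06, adjusted p from 0.0596 to 0.132). It stood at 0.796 ± 1.10 RPKM in HOM, 2.17 ± 3.91 in HET DN3 and 2.95 ± 4.05 in HET DN2, and entered the tests only through the HET groups. Of the CD34 family, Podxl, the podocalyxin gene, stood at 1.23 ± 0.209 RPKM in HOM and 0.0151 ± 0.0118 RPKM in WT DN3 (6.29, SE 1.46, adjusted p = 0.00171), and Podxl2 was lower (-1.42, adjusted p = 0.0144). Podxl entered the tests only through HOM and Podxl2 only through WT DN3, so both changes are a description. Of 8 tested genes around CD44, the linker gene Ezr was lower in HOM than in WT DN3 (-0.58, SE 0.08, adjusted p = 5.27e-06), the linker gene Msn higher (0.52, SE 0.15, adjusted p = 0.00839) and the ligand gene Spp1 higher (9.50, SE 3.29, adjusted p = 0.0262; 6.05, adjusted p = 0.0139 without the 6 libraries; 9.20, adjusted p = 0.0560 without WT DN3 replicate 5).

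Genes with the most similar pattern were found by Pearson correlation of log2(RPKM + 1) over the 25 libraries. The value is a description, since libraries of 1 group share much of their pattern, and the neighbours' own group differences follow from the choice. With a pseudocount of 0.1 in place of 1, the 5 nearest genes shared 4 with these for Kit, 2 for Flt3, 5 for Cpa3, 4 for Cd34 and 2 for Cd44. Kit was closest to Plcg2, a phospholipase of receptor signalling (r = 0.978), followed by Zfp608, the adhesion receptor gene Adgrg3, the SLAM-family receptor gene Cd244 and the tyrosine kinase gene Fes (0.953). Adgrg3 stood at 91.7 RPKM in HOM, 8.51 in HET DN3, 4.42 in WT DN3, 32.7 in HET DN2 and 25.6 in WT DN2. Flt3 was closest to genes with little RNA outside HOM: Gas7 (r = 0.991), the ligand gene Wnt6, Hecw2, the neuropeptide receptor gene Npffr1 and Zbtb16, the gene of the innate lymphocyte factor PLZF (0.982). Wnt6 stood at 10.2 RPKM in HOM and at most 0.0524 RPKM in the means of the other groups.

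Cpa3 had Igfbp4, an insulin-like growth factor binding protein gene, as its nearest neighbour (r = 0.952), followed by the necroptosis effector gene Mlkl, the ligand gene Fgf3, the fucosyltransferase gene Fut7 and the protease gene Napsa (0.936). Igfbp4 stood at 40.1 RPKM in HOM and 33.1 RPKM in WT DN2. Cd34 was closest to Emilin2 (r = 0.962), Olfm5, Nxpe5, the myeloperoxidase gene Mpo and 9030619P08Rik (0.948). Mpo stood at 0.137 RPKM in HOM, 0.194 in HET DN3, 0.874 in WT DN3, 4.74 in HET DN2 and 4.25 in WT DN2. The WT DN3 mean was made by replicate 5 (4.35 RPKM), with at most 0.0229 RPKM in the other 4. Cd44 was closest to Litaf (r = 0.939), Arhgef12, the integrin gene Itgav, Antxr2 and Pik3c2a (0.910). With group means subtracted, Myl4 and Ccdc8 were among the nearest genes of both Kit and Cpa3 (r from 0.873 to 0.904). The nearest were Mpo, 9030619P08Rik and Emilin2 for Cd34, Ext1, Pja2 and Serinc1 for Cd44, and Tstd3, Gas7 and Sde2 for Flt3. With a pseudocount of 0.1, of these 3 nearest genes 3 stayed for Kit, 2 for Cd44, 1 each for Cpa3 and Cd34 and 0 for Flt3. These within-group values include the spread made by WT DN3 replicate 5 and by the libraries with transcripts of other cells.

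In the Vav1-iCre libraries, Kit and Flt3 were again higher in HOM. The deposited table of those libraries lists only 2076 genes, a selection whose changes in HOM leave a gap around no change. Kit and Flt3 are among them, so their changes in HOM are a description, with no test, and Cpa3, Cd34 and Cd44 were not analysed here for that Cre. Kit had 13519, 10994 and 12772 scaled counts in HOM, 3404, 3335, 3242 and 2531 in HET and 2611 and 2391 in WT. Scaled counts are read counts divided by a relative size factor of each library, on a scale that centres the selection's gap around no change. No HOM library came near the others. Flt3 had 171, 211 and 157 scaled counts in HOM, 7.53, 10.3, 3.56 and 9.21 in HET and 2.99 and 12.8 in WT, with HET and WT overlapping.

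**Figure D5:**
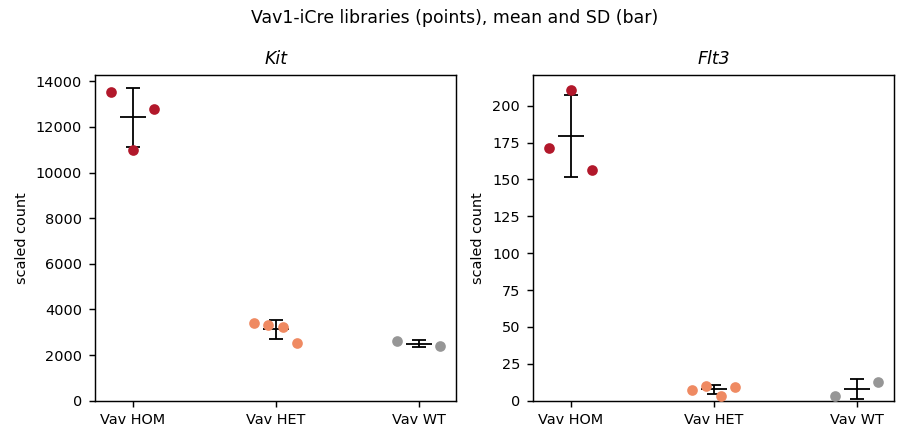
Kit (left) and Flt3 (right) in scaled counts (vertical axes, linear) in the 9 Vav1-iCre libraries, with each point 1 library and bars for the group mean and SD, for HOM, HET and WT from left to right. Kit averages 12428 scaled counts in HOM and Flt3 averages 179 in HOM, and each HOM library lies above every HET and WT library.

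The log2 changes were 1.99 (SE 0.15) for Kit and 4.51 (SE 0.44) for Flt3 in HOM against HET, and 2.31 (SE 0.20) for Kit and 4.60 (SE 0.58) for Flt3 in HOM against WT. For Kit these lie near the 2.29 and 2.36 of the Lck series against HET DN3 and WT DN3, although the scales were set separately and the difference was not tested. Flt3 in HOM against WT became 5.86 when Vav WT replicate 2 was left out. HET did not differ detectably from WT for Kit (0.32, SE 0.18, adjusted p = 0.502) or Flt3 (0.09, SE 0.58, adjusted p = 0.982), in a comparison where 2.22% of the listed genes were called. Bcl11b averaged 8176 ± 381 scaled counts in HOM (n = 3), 20308 ± 2204 in HET (n = 4) and 23667 ± 8794 in WT (n = 2).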

How the data were processed

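Both deposited tables hold raw read counts per gene over exons, per the file headers (HOMER, mm9, 1 transcript per gene), although their names say RPKM. The deposited Length column gives exon length in bases (another kind of value). Tools listed in the submitters' processing notes are STAR 2.4.0, RSEM 1.2.25, edgeR 3.6.8, Trimmomatic 033 and HOMER. Libraries were made from 300000 cells and read as 50-nt single ends, per the labels. In 10 of 25 Lck columns 26 values of date-like symbols were missing and later values stood beside wrong names. These were moved back (log-scale correlation with intact columns 0.981 to 0.997 after, 0.380 to 0.395 before, over 7154 genes between the gaps), and 114 genes of unsettled order were left out. All 5 genes stand before the first gap and were not affected.

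RPKM and CPM were computed from the counts. Genes with a mean of at least 1 RPKM in 1 group (12218) were fitted in edgeR 4.0.16 (TMM, quasi-likelihood test, all 5 Lck groups), 2-sided, adjusted over all genes, called under 0.05. SE is the absolute log2 change over the square root of F. The test was checked on simulated counts of fixed spread, with changes only in genes of higher counts. That check does not cover outlying libraries or genes with few counts. Motif positions count from the annotated start. Vav counts were scaled by TMM within controls and within HOM and by centring the gap in changes, at log2 0.99 either side; full depth of those libraries is unknown (1329826 to 2836293 counts listed). Fits without a library used the rest of the 5 groups. Same-numbered WT DN3 and WT DN2 libraries deviated together (r across genes 0.220 to 0.580 for 4 pairs). In other comparisons only some pairs did. Values ran from -0.527 to 0.625 in HET DN3 against HET DN2 and from -0.0727 to 0.618 in HOM against HET DN3. The main fits used no pairing. It entered only through the replicate block among the alternatives, so the adjusted p-values are unpaired unless that block is named. The 5 genes, the gene lists and the rule for named genes (the 5, Bcl11b, nearest-pattern genes, and up to 4 list members with the smallest adjusted p) were chosen with earlier results of these data known. Rag1, Notch3, Lyl1, Hhex and Spi1 were named for WT DN3 replicate 5 after their values were seen. Alternatives were other normalizations, tools (DESeq2 1.42.0, limma 3.58.1 with pseudocounts 1 and 0.1), filters, a replicate block and left-out libraries, some of them chosen after seeing the data. One nearest-pattern gene is not reported here.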

Additional observations from a re-analysis of the deposited data

Results flagged for a closer look

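In 4 of 27 groups of library values for the 5 genes, the highest or lowest library stood farther from its nearest neighbour, relative to the range of the group, than the 95% critical value of Dixon's test. Chance flags about 1 in 20 such groups. WT DN3 replicate 5 accounted for 3 of them, which are 1 library and not 3 separate findings. Its levels of Kit and Cpa3 were known when the genes were chosen, so its values are a description. They were 15.6 RPKM of Kit (nearest 8.35), 26.2 RPKM of Cpa3 (nearest 1.01) and 2.83 RPKM of Cd34 (nearest 0.0222). HET DN2 replicate 1, which also had epithelial transcripts, was the lowest of its group for Kit, with 18.4 RPKM (nearest 25.6).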

How the results depend on the processing

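Over 46 results, 880 of 928 alternatives kept the side of the threshold and the direction of every call; the sign changed without a call on either side in 43. Kit kept its calls in every alternative, and Flt3 in the Lck comparisons. Values are log2 changes. Leaving out 1 library at a time gave -2.56 to 4.21 for Cd34 and 1.69 to 2.65 for Cd44 in HOM against WT DN3, -4.92 to -3.26 for Cd34 in HOM against WT DN2, -0.94 to 2.18 for Cpa3 and 3.08 to 4.04 for Cd44 in HET DN3 against WT DN3, -7.78 to -2.03 for Cd34 and -2.84 to -1.99 for Cd44 in WT DN3 against WT DN2, and 3.82 to 5.86 for Flt3 in Vav HOM against WT. The Cd44 call in HOM against WT DN3 was lost without HOM replicate 2 or any of WT DN3 replicates 1 to 4, that in HET DN3 against WT DN3 without WT DN3 replicate 3 or 4 or HET DN3 replicate 1, and that in WT DN3 against WT DN2 without WT DN2 replicate 1 or 2 or WT DN3 replicates 1 to 4. With the replicate number as a block, Cd44 in HOM against WT DN3 was 2.19 and not called (adjusted p = 0.0627) and Cd34 in WT DN3 against WT DN2 was -7.72 and called; the block changed no other call. Without the 6 libraries, Cd44 in HOM against WT DN3 was 1.43 and Cd34 in HOM against WT DN2 -3.27. Without the 8, Cd34 in HOM against WT DN2 was -3.37 and in HET DN3 against HET DN2 -5.98, and Cd44 was 0.97 in HET DN3 against WT DN3 and -1.53 in HET DN3 against HET DN2. Without the 8 and WT DN3 replicate 5, a setting chosen after seeing the data, Cd34 was 4.57 in HOM against WT DN3 and -7.94 in WT DN3 against WT DN2, Cpa3 2.15 and Cd44 1.45 in HET DN3 against WT DN3, and Cd44 -1.53 in HET DN3 against HET DN2. With limma on log2(RPKM + 1), Cd44 was 1.14 in HOM against WT DN3, 1.77 in HET DN3 against WT DN3 and -1.38 in WT DN3 against WT DN2, none of them called, and Cd34 was -1.63 in WT DN3 against WT DN2 (-3.86 with a pseudocount of 0.1), called. Without a filter, Cd34 in HOM against WT DN2 (-3.62) and Cd44 in WT DN3 against WT DN2 (-2.36) were not called. DESeq2 called Cd34 in HET DN3 against WT DN3 (-3.83), and Cd44 there was not called with only those groups in the fit (3.57). The causes were not tested. A filter of 5 RPKM leaves out Flt3 and Cd34. Calls over all genes in HET DN3 against WT DN3 numbered 900, and 10 (without WT DN3 replicate 3) to 1877 (DESeq2) under the alternatives. With only the groups compared in the fit, 461 genes were called in HET DN3 against HET DN2 (1329 in the fit of all groups) and 4497 in WT DN3 against WT DN2 (2622). Low counts limit Flt3 outside HOM and Cd34 outside DN2.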
